A study of Mus musculus with 3008 samples.

Results

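Among regulatory T cells (Tregs) of the mouse spleen, a group of cells carried transcripts of the interferon response. Members were selected on measured values: they are the spleen cells with at least 1000 unique molecular identifiers (UMIs, each standing for 1 captured mRNA) whose summed UMIs of Isg15, Ifit1, Ifit3, Usp18, Rtp4 and Irf7 came to 2 or more. These 6 gating genes gave 68 members, 11.1% of the spleen cells of that depth. The study holds 3008 cells in all, in 3 libraries made by inDrops, a droplet method for single-cell mRNA sequencing: 1 of the spleen and 2 of the colon lamina propria, called colon 1 and colon 2 here. The labels of colon 2 give a different replicate number in the title and in the sample type, so whether the colon libraries came from separate animals is not known. All came from male B6 Foxp3-Ires-Gfp mice aged 7 months, in which GFP is made from the Foxp3 locus and marks Tregs. Cells were sorted as DAPI- TCRb+ CD4+ GFP+ after mechanical dissociation of the spleen or enzyme digestion of the colon, and no group received a treatment. The labels name no animal, so each library is 1 sample, and no test between animals or conditions can be made.

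Interferons are secreted cytokines that signal through paired receptors, JAK kinases and STAT transcription factors. Type I interferon leads to a complex that includes STAT2 and IRF9 and binds the interferon-stimulated response element, and interferon gamma leads to STAT dimers that bind gamma-activated sites. The genes so induced encode antiviral effectors, sensors of foreign nucleic acid, large GTPases and parts of the MHC class I pathway. Regulatory T cells restrain other lymphocytes, carry interferon receptors and respond to both kinds of interferon.

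The gating genes themselves are listed only as what chose the cells. Isg15 encodes a ubiquitin-like modifier, Ifit1 and Ifit3 bind viral RNA, Usp18 removes ISG15 and dampens the interferon receptor, Rtp4 is a receptor transporter induced by interferon, and Irf7 is a transcription factor of the type I response. Isg15 was found in 43 members, Rtp4 in 24, Usp18 in 22, Irf7 in 17, Ifit1 in 14 and Ifit3 in 9. Members held 76 UMIs of Isg15, 64 of Rtp4, 50 of Usp18, 39 of Ifit1, 26 of Irf7 and 21 of Ifit3. UMIs of 2 or more different gating genes were present in 42 members, of which 13 had 3 or more genes, while 26 members held 1 gating gene only. That gene was Rtp4 in 8 of these 26 cells, Isg15 in 7, Usp18 in 5, Irf7 in 3, Ifit3 in 2 and Ifit1 in 1. The median member had 3 gating UMIs, and the highest had 32, from all 6 genes, followed by a member with 15.

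The DNA element bound in the type I response was found in the window of 3 gating genes. The list genes shown with them were all 2-fold higher in the members, except Ifit3b, which had too few UMIs for a ratio. The upstream sequences of these genes are given below. Each is read 5′ to 3′ on the strand of the gene, lies upstream of the start of transcription given by RefSeq and outside any GENCODE vM21 gene, and has in capitals the matches to the core of the interferon-stimulated response element, which is GAAA, any 2 bases and GAAA, or to its reverse complement (build GRCm38.p6).
Isg15, chr4:156200860-156200911, minus strand: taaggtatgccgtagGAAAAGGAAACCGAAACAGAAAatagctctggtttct
Ifit1, chr19:34640770-34640828, plus strand: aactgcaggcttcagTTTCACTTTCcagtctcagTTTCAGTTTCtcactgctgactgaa
Ifit3, chr19:34583358-34583431, plus strand: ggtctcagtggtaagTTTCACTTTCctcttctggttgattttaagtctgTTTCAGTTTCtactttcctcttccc
Ifit3b, chr19:34607754-34607827, plus strand: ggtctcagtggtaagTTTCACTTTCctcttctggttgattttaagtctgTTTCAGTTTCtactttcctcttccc
Rsad2, chr12:26456548-26456587, minus strand: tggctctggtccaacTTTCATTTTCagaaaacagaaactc
Bst2, chr8:71537572-71537617, minus strand: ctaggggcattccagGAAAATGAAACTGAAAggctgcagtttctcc
Gbp7, chr3:142530268-142530307, plus strand: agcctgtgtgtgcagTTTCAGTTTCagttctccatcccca
Phf11a, chr14:59297527-59297566, minus strand: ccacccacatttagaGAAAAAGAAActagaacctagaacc
Trim30a, chr7:104465205-104465244, minus strand: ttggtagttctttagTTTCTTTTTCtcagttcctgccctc
The Isg15 stretch holds 3 overlapping matches between 78 and 57 bases before the start, and the Bst2 stretch holds 2. The stretches of Ifit3 and of its neighbouring copy Ifit3b are the same over all 74 bases, and both genes lie on chromosome 19 with Ifit1. Irf7 had no match in its window of 300 bases, which runs from 250 before to 50 after the start, and the promoters of Usp18 and Rtp4 were not looked at.

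Each member was set beside 3 spleen cells with 0 gating UMIs and the nearest total UMIs, called matched cells. The median depth was 2055.5 UMIs in members and 2050.5 in matched cells, against 1815 in all spleen cells with 0 gating UMIs. UMIs were summed over the cells of a group and scaled to counts per 1000000 UMIs (CPM) without the gating genes. With 153425 UMIs behind the members and 453866 behind the matched cells, the intervals given below (95%) cover counting error only, not the spread between cells or animals. A gene entered the comparison with at least 30 UMIs over both groups, and a ratio of 2 in either direction is called 2-fold higher or lower. A gene near this minimum can enter through the group where it is higher, which bears on the counts of genes past 2-fold. Of 3082 such genes, 5.61% were 2-fold higher and 7.75% 2-fold lower in the members. The ratio was above 1 for 50.4% of these genes, and the median log2 ratio over all of them was 0.01. With edgeR's TMM scaling this median moved to -0.11 and the higher genes made up 28% of those past 2-fold, against 42% as scaled here, so small log2 differences are to be read against that shift.

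The spleen library held 1255946 UMIs with a median of 1847 per cell, colon 1 1253246 and 1767, and colon 2 3916649 and 2026.5. Libraries shared 5, 11 and 9 cell barcodes in the 3 pairs of libraries, and no barcode belonged to gated cells in both libraries of a pair. Whether a member's barcode recurred among ungated cells of another library was not examined. Ribosomal protein genes made up 27.7% of UMIs in members and 30.1% in matched cells. Their part in the results was not tested, but the summed interferon genes described next were 1.35 times higher when ribosomal protein genes were left out of the totals.

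The label was first checked against the markers of Tregs and of other cells. Foxp3, the transcription factor that defines Tregs, was found in 25 members (247.7 CPM) and 60 matched cells (231.35 CPM), a log2 ratio of 0.10 (-0.48 to 0.65). Cd4 stood at 0.18 (-0.33 to 0.67), the Helios gene Ikzf2 at 0.12 (-0.19 to 0.41) and the IL-2 receptor gene Il2ra at -0.15 (-0.66 to 0.33). Members and matched cells differed by less than counting error for each of these 4 genes. All 6 Treg markers were detected in both groups, and their sum was 1.14-fold (1.01 to 1.29) higher in members, with Ctla4 the marker whose own interval excluded 0. Ctla4, an inhibitory receptor of Tregs, was found in 23 members (567.05 CPM) and 77 matched cells (337.1 CPM), a log2 ratio of 0.75 (0.35 to 1.14), and 17 of its 87 member UMIs came from 1 cell. As a share of cells with a UMI its log2 ratio was -0.16, so the direction for Ctla4 depends on the measure. In the longer Treg identity list 0 of 16 genes were 2-fold higher and 2 were 2-fold lower, Gpr83 at -1.24 (-2.95 to 0.12) and the ectonucleotidase gene Nt5e at -1.52 (-3.48 to -0.04), with a summed ratio of 1.05 (0.97 to 1.14).

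Markers of other cell types were at 0 for some lists and present at a low level for others. All 6 conventional helper T cell cytokine and CD40 ligand genes, all 6 granulocyte genes and all 7 erythroid or platelet genes were at 0 UMIs. Of 12 B cell genes 10 were at 0, including Cd79a and Ms4a1. The other 2, Cd74 and Cd79b, had 12 UMIs in 10 members (78.2 against 79.3 CPM in matched cells). Of 14 macrophage, monocyte or dendritic cell genes 11 were at 0, including Lyz2, Csf1r and the C1q genes. The 3 detected genes of that list, among them Cst3 and Xcr1, had 28 UMIs in 17 members (182.5 against 156.4 CPM in matched cells). Of 10 genes of CD8 T cells or NK cells, 6 were detected, with 40 UMIs in 15 members (260.7 against 255.6 CPM), of which 26 were from the chemokine gene Ccl5. The B cell, macrophage and CD8 or NK cell lists each differed from the matched cells by less than counting error. The plasmacytoid dendritic cell list was 2.55-fold (1.75 to 3.70) higher in members, with UMIs in 30 members and 50 matched cells. Of its 56 member UMIs, 31 were from Bst2, which interferon also induces and which is described with the antiviral genes. Without Bst2 the list was still 2.39-fold (1.35 to 4.17) higher, on 25 UMIs in 12 members and 31 in matched cells. These were 7 UMIs of Ly6d in 2 members, 6 of Irf8, 5 of Tcf4, 4 of Ccr9 and 3 of Siglech, a defining gene of plasmacytoid dendritic cells, and Pld4, Spib, Cox6a2 and Klk1 had 0 in members. Without the 6 members and the matched cells that held 2 markers of one other cell type, the interferon genes were 1.39 times higher, as with them. Genes of the interferon lists, among them Bst2 and Irf8, did not count as such markers.

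Genes of 6 interferon lists, with the gating genes left out, were higher in the members as a group. In these lists 68 genes had enough UMIs for a ratio. Of these 68, 21 were 2-fold higher and 1 was 2-fold lower, beside 5.61% and 7.75% of all genes, and 57 had a ratio above 1. The median log2 ratio was 0.66, beside 0.01 for all genes. Their summed level was 23073 CPM (22319 to 23846) in members and 16578 (16205 to 16956) in matched cells, 1.39-fold (1.34 to 1.45). Leaving out the Ifit copies Ifit3b, Ifit1bl1 and Ifit1bl2, whose reads may be shared with the gating genes Ifit1 and Ifit3, left it at 1.38-fold.

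**Figure D1:**
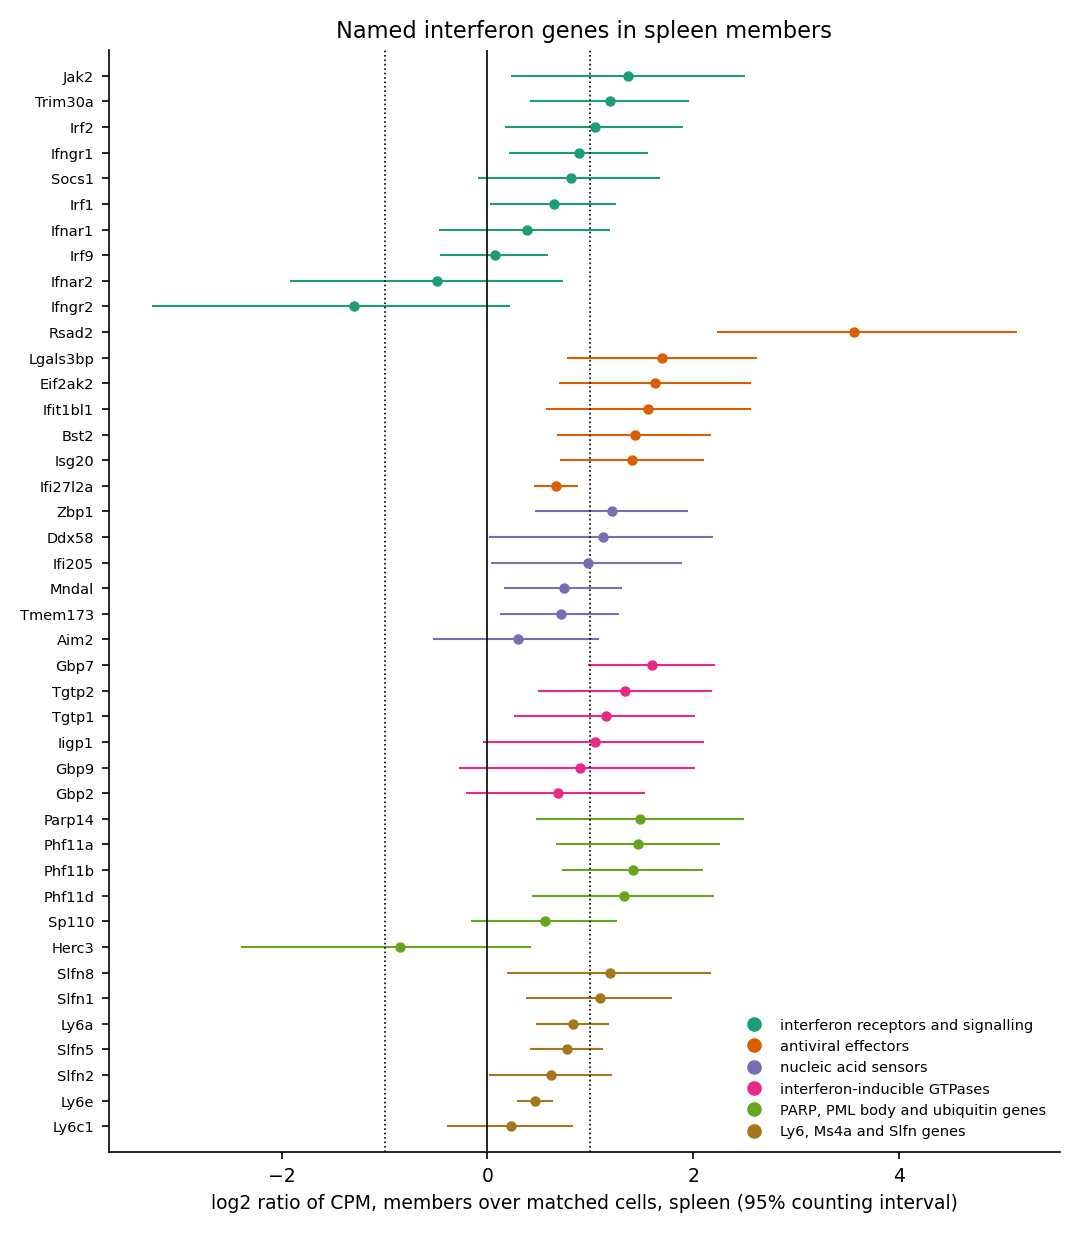
Log2 ratio of CPM in 68 spleen members over their matched cells for the named genes of 6 interferon lists, with 95% counting intervals as bars, dotted lines at 2-fold and colours for the lists. Rsad2 stands highest at 3.56, and most genes lie right of 0, while Ifngr2, Herc3 and Ifnar2 lie left of it with intervals that include 0.

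Of the receptors and signalling genes, 14 of 18 could be compared, and 3 were 2-fold higher and 1 lower. The receptor genes showed no common direction. Ifnar1, a chain of the type I interferon receptor, was at log2 0.39 (-0.48 to 1.20) and its partner Ifnar2 at -0.49 (-1.92 to 0.74). Ifngr1, the ligand-binding chain of the interferon gamma receptor, was at 0.89 (0.21 to 1.56), with 32 UMIs in 20 members, and Ifngr2, its partner, was the 1 gene past 2-fold lower at -1.29 (-3.26 to 0.22), on 4 UMIs. Jak2, a kinase of the interferon gamma receptor, was at 1.37 (0.23 to 2.50) with 14 UMIs in 8 members.

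The transcription factors were uneven in the same way. Irf9, the DNA-binding part of the type I complex, was at 0.07 (-0.47 to 0.59) on 43 UMIs. Stat2, with 8 UMIs in members and 20 in matched cells, had too few for a ratio. Irf1 was at 0.65 (0.02 to 1.25) and Irf2 at 1.05 (0.17 to 1.90). Of these IRF genes, Irf2 was past 2-fold, while the interval of Irf9 included 0. Trim30a, a tripartite motif gene that dampens inflammatory signalling, was at 1.19 (0.41 to 1.96), and the feedback inhibitor Socs1 at 0.81 (-0.09 to 1.68).

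The antiviral effectors included the gene with the highest ratio among those named. Rsad2 encodes viperin, which makes a chain-terminating nucleotide, and lies on chromosome 12 from 26442746 to 26456452. It had 24 UMIs in 6 members and 6 UMIs in 5 matched cells, 156.4 against 13.2 CPM, a log2 ratio of 3.56 (2.24 to 5.15). All 24 UMIs were in members with 2 or more gating genes, and no member held more than 5. Rsad2 was thus seen in few members, and strongly so in those. Cmpk2, a nucleotide kinase of the same pathway, had 12 UMIs in 4 members and 2 in 1 matched cell, too few to enter the comparison.

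In all, 6 of 12 antiviral genes were 2-fold higher and 0 lower. Bst2, which encodes tetherin and holds budding virus at the membrane, had 31 UMIs in 19 members and 34 in 29 matched cells, a log2 ratio of 1.43 (0.68 to 2.18). Eif2ak2, the RNA-activated kinase PKR, was at 1.63 (0.70 to 2.57), with UMIs in 16 members and 15 matched cells. Lgals3bp, a secreted galectin-binding protein, was at 1.70 (0.78 to 2.62), and the exonuclease gene Isg20 at 1.41 (0.71 to 2.10). Ifit1bl1 at 1.56 (0.57 to 2.56) is a copy related to a gating gene and is uncertain for that reason. Broadly expressed genes of the same list differed less: Ifi27l2a had UMIs in 58 members and stood at 1772.9 against 1117.1 CPM, a log2 ratio of 0.67 (0.45 to 0.88). Many classical antiviral genes were close to the limit of detection, among them Oas1a with 7 UMIs in members and 5 in matched cells, Oas3 with 8 and 6, Oasl2 with 5 and 2 and Mx1 with 2 and 5.

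Among sensors of foreign nucleic acid, 2 of 7 genes were 2-fold higher and 7 of 7 had a ratio above 1. Zbp1, a sensor of Z-form nucleic acid that can start necroptosis, had 29 UMIs in 14 members and 37 in 22 matched cells, a log2 ratio of 1.21 (0.46 to 1.95). Ddx58, the RNA sensor RIG-I, was at 1.12 (0.02 to 2.20) with 14 UMIs, 13 of them in members with 2 or more gating genes. Tmem173, which encodes STING, was at 0.71 (0.13 to 1.28), and the DNA-binding gene Mndal at 0.75 (0.17 to 1.31). Aim2, a DNA sensor of the inflammasome, was at 0.30 (-0.53 to 1.08) and was spread over 19 members with at most 2 UMIs each.

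The interferon-inducible GTPases, which attack the vacuoles of intracellular microbes, were 2-fold higher for 4 of 13 genes. Gbp7 had 47 UMIs in 19 members and 46 in 30 matched cells, 306.3 against 101.35 CPM, a log2 ratio of 1.60 (0.98 to 2.21). Tgtp2 and Tgtp1, nearly identical copies on chromosome 11 whose reads may be exchanged, were at 1.34 (0.49 to 2.18) and 1.15 (0.26 to 2.02), and Iigp1 was at 1.05 (-0.05 to 2.11). Some other GTPases stood lower in the spleen: Ifi47 was at 0.10, Irgm1 at 0.18 and Gvin1 at 0.05, and Gbp4 was at -0.51. All of these lay below the list's median log2 ratio of 0.54, and 12 of the 13 genes had a ratio above 1. Of the PARP, PML body and ubiquitin genes, 4 of 10 were 2-fold higher, namely the mono-ADP-ribosyltransferase gene Parp14 at 1.49 (0.47 to 2.50) and the related PHD finger genes Phf11a at 1.47 (0.67 to 2.26), Phf11b at 1.41 (0.72 to 2.10) and Phf11d at 1.32 (0.44 to 2.20). The Phf11 genes are close relatives, so their UMIs may be split between them.

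The cell surface and Schlafen genes differed less in ratio but on more UMIs. Ly6a, the surface protein Sca-1, had UMIs in 25 members (710.4 CPM) and 58 matched cells (398.8 CPM), a log2 ratio of 0.83 (0.48 to 1.18). Ly6e stood at 0.46 (0.29 to 0.64) with UMIs in 64 of the members, and Ly6c1 at 0.23 (-0.39 to 0.83), with 17 of its 33 UMIs in 1 member. Of the Schlafen genes, regulators of T cell quiescence, Slfn8 was at 1.19 (0.19 to 2.17), Slfn1 at 1.09 (0.38 to 1.79) and Slfn5 at 0.77 (0.42 to 1.12). Of 16 genes of MHC class I and antigen processing, 14 had a ratio above 1 but 1 was 2-fold higher. That gene was Tap2, a subunit of the peptide transporter, at 1.20 (0.55 to 1.84), and its partner Tap1 was at 0.89 (0.40 to 1.38). Tapbp, which couples the transporter to class I molecules, was at 0.78 (0.43 to 1.12), and the whole list was 1.18-fold (1.13 to 1.22) higher.

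The interferon level of the members differed with the number of different gating genes, with wide overlap between cells. Per cell, the UMIs of the 6 interferon lists had a median of 16238 per 1000000 UMIs in the matched cells, with the lowest cell at 977.04 and the highest at 40466. The 26 members with 1 gating gene had a median of 16613 (6270 to 34434), the 29 with 2 genes 20268 (7292 to 55819) and the 13 with 3 or more 34018 (15060 to 64424). Members with 1 gating gene were thus placed like the matched cells, and the members with 3 or more reached highest, with 3 of them below the median of those with 2. The 90th percentile of the matched cells, 25555 per 1000000 UMIs, was passed by 45.2% of members with 2 or more gating genes, 11.5% of those with 1 and 12.7% of the spleen cells with a single gating UMI. Across the 68 members the number of gating genes and the interferon level had a Spearman correlation of 0.47, given as a description, since both are read from the same cells. The highest of all, at 64424 per 1000000 UMIs, had 8 gating UMIs, and the member with 32 gating UMIs stood at 59151.

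**Figure D2:**
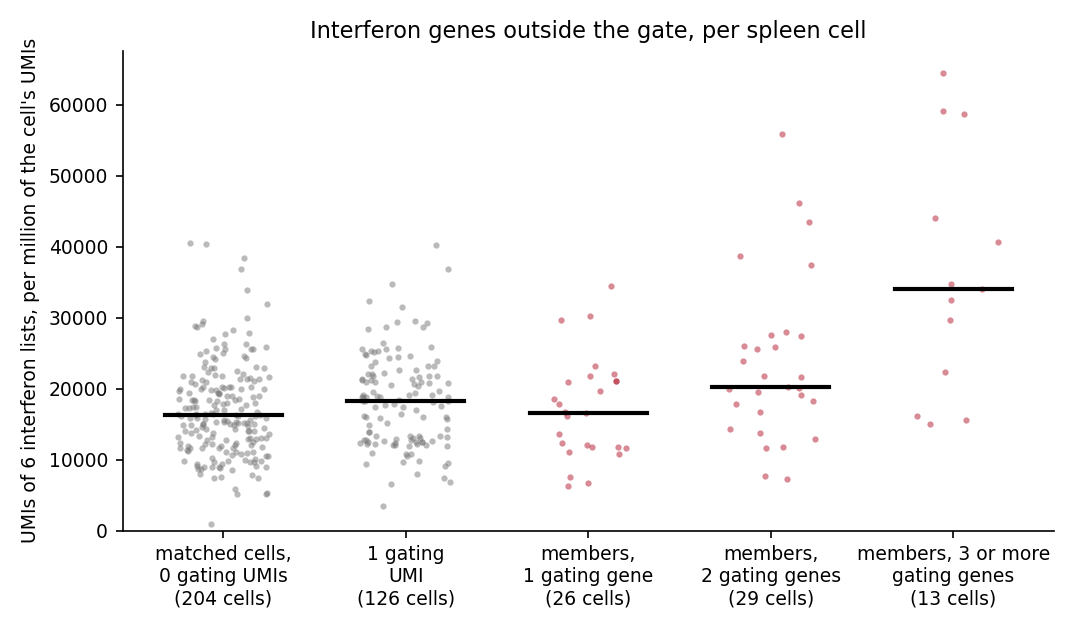
UMIs of the 6 interferon lists per 1000000 UMIs of each spleen cell (vertical axis) by gating group (horizontal axis), 1 point per cell with the median as a black line. The medians run from 16238 in matched cells and 16613 in members with 1 gating gene to 34018 in members with 3 or more.

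As sums, members with 2 or more gating genes were at 26526 CPM (25514 to 27567), 1.60-fold (1.53 to 1.67) above the matched cells, and members with 1 gating gene were at 17030 CPM, 1.03-fold (0.96 to 1.10). With matched cells chosen anew for each subset, 20 of 48 genes were 2-fold higher and 1 lower for 2 or more gating genes, and 0 of 22 were higher and 1 lower for 1 gating gene. The nucleic acid sensors stood at 1823 CPM with 2 or more gating genes, 699.1 with 1 and 881.3 in matched cells. The PARP, PML body and ubiquitin genes stood at 2202, 1039.7 and 1269.1 CPM in the same order. The gate of 2 UMIs therefore joined cells whose other interferon genes were above the matched cells with cells where such a difference was not detectable at this depth. At the edge of the gate, cells with exactly 2 gating UMIs were at 18983 CPM (17970 to 20038), cells with 1 at 18211 (17695 to 18739) and cells with 3 or more at 26435 (25349 to 27557). Of the spleen cells with exactly 2, the 15 with 1 gating gene were at 16929 CPM (15425 to 18540). The 18 with 2 genes were at 20334 (18989 to 21749). Such cells were at 15284 and 13282 CPM in colon 1, and at 21320 and 21275 in colon 2. The parts of gene number and UMI number were not tested.

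MHC class I genes did not follow the split by number of gating genes to the same extent. They were 1.21-fold (1.15 to 1.26) above the matched cells in members with 2 or more gating genes and 1.13-fold (1.06 to 1.20) in members with 1.

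**Figure D3:**
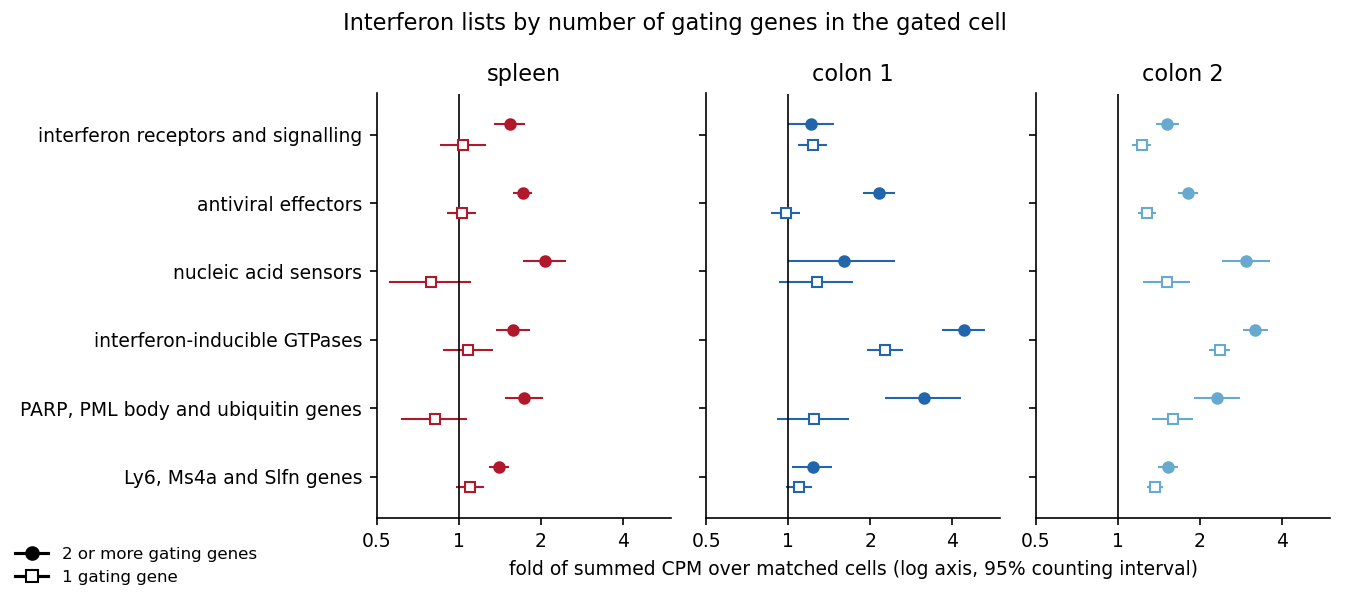
Fold of the summed CPM of each interferon list over matched cells (log axis, bars are 95% counting intervals), for gated cells with 2 or more gating genes (filled circles) and with 1 (open squares), in the 3 libraries. In the spleen the open squares lie near 1, with the sensors and the PARP list below it, and in both colon libraries the GTPases stand farthest right for both kinds of cell.

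Outside the interferon lists, the summed level of a list of resting and recirculating lymphocyte genes was lower in the members, with single genes on both sides of 0. S1pr1, the receptor that lets lymphocytes leave lymphoid organs, had UMIs in 10 members and 59 matched cells, 136.9 against 334.9 CPM, a log2 ratio of -1.29 (-2.02 to -0.63). Klf2, the transcription factor that drives S1pr1, was at -0.82 (-1.26 to -0.40) with UMIs in 25 members and 91 matched cells. The survival gene Bcl2 was at -1.14 (-2.26 to -0.17), on 10 UMIs in 6 members. Of 14 genes of this list 2 were 2-fold lower and 0 higher, beside 7.75% and 5.61% of all genes, and 6 had a ratio above 1. The median log2 ratio was -0.20, and its sum was 2307 CPM in members against 2878, a ratio of 0.80 (0.71 to 0.90). The ratio was 0.74 (0.63 to 0.85) for members with 2 or more gating genes and 0.92 (0.77 to 1.09) for those with 1.

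The activated effector Treg list was 1.20-fold (1.12 to 1.28) higher, with 1 of 18 genes past 2-fold. That gene was Klrg1, an inhibitory receptor of terminally differentiated lymphocytes, with 59 UMIs in 13 members and 54 in 17 matched cells, a log2 ratio of 1.69 (1.14 to 2.25). This list had the reverse split from the interferon genes, at 1.47-fold (1.34 to 1.61) in members with 1 gating gene and 1.04-fold (0.96 to 1.13) in those with 2 or more. S100a11 of this list was at 0.65 (0.26 to 1.03), with 28 of its 88 UMIs in 1 member.

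TCR-induced early genes were at 938.6 CPM in members and 1154.5 in matched cells, a ratio of 0.81 (0.67 to 0.98). Myc, the growth regulator, was at -1.83 (-3.33 to -0.63) on 6 UMIs in 3 members, and Nr4a1, an orphan nuclear receptor induced by antigen, at -0.61 (-1.22 to -0.04). Of 14 dissociation and heat-shock genes 1 was 2-fold higher and 1 lower, with a summed ratio of 1.05 (0.97 to 1.14). The chaperone gene Hsp90aa1 was the lower one, at -1.40 (-2.15 to -0.72). Cell cycle genes stood at 1075.4 and 1117.1 CPM, and Mki67, Top2a and Cdk1 had 0 UMIs in the members. JAK-STAT cytokine genes stood at a ratio of 1.12 (0.99 to 1.26) and survival and death genes at 1.05 (0.88 to 1.24), both within counting error of 1.

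Ranked by the end of the interval nearest to no difference, only Rsad2 and Gbp7 of the interferon lists were among the 15 highest genes of the spleen comparison. The other 13 were Klrg1, described above, and genes of none of the lists. Tmem127, a lysosomal membrane protein, was at 2.50 (1.38 to 3.70), with 21 UMIs in 10 members, and Sh3gl1, an endophilin of endocytosis, at 2.18 (1.18 to 3.22). H2-M3, which presents formylated peptides, was at 2.08 (1.02 to 3.18), with 20 UMIs in 7 members. The ubiquitin ligase gene Maea was at 1.93 (1.17 to 2.69), and Ywhaq, a 14-3-3 protein, at 1.41 (0.90 to 1.92). The other 7 were Faap20, Pqlc3, the proton channel gene Hvcn1, Ppp2cb, Vamp3, Rer1 and Med30, between 1.76 and 2.11. The genes with values given here were lower in both colon libraries than in the spleen: Tmem127 was at 0.57 and -2.91 in colon 1 and colon 2, Sh3gl1 at -0.01 and -0.47, H2-M3 at -0.01 and 0.45, Maea at 0.20 and -0.23 and Ywhaq at 0.03 and -0.83. In colon 1, Tmem127, Sh3gl1 and H2-M3 had under 30 UMIs, below the minimum used for a ratio. The genes compared here were chosen as highest in the spleen, so lower colon ratios cannot be told apart from that choice. The 15 lowest genes rested on 1 to 8 UMIs in the members. March2, a membrane ubiquitin ligase, had 1 UMI in members and 53 in 20 matched cells, a log2 ratio of -4.16 (-9.49 to -1.62). Penk, the proenkephalin gene, had 1 and 45, but the 45 came from 6 matched cells. The others were Gbas, Pcbd2, Nudt16, Rbm7, Aplp2, Snhg1, Rsbn1, Brd1, Cisd2, Golga7, Fryl, Ankrd13a and Rexo2, between -3.99 and -1.81.

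The same gate was applied to both colon libraries, which the choice of members had not used. Among cells of 1000 or more UMIs, 11.1% (8.72 to 13.9) of spleen cells, 7.54% (5.57 to 9.93) of the 610 colon 1 cells and 5.91% (4.85 to 7.12) of the 1744 colon 2 cells passed (exact Clopper-Pearson intervals, counting error only). With each cell thinned to 1000 UMIs the shares were 5.55%, 3.11% and 2.24%. Cells with 2 or more gating genes made up 6.85% (4.98 to 9.15) in the spleen, 1.80% (0.904 to 3.20) in colon 1 and 2.12% (1.498 to 2.91) in colon 2. The spleen was highest by each of these measures, and its interval overlapped that of colon 1 for the gate of 2 UMIs, thinned or not, but not for 2 or more gating genes. In colon 1, 27 of the 35 gated cells with 1 gating gene had Isg15 alone, and a gate without Isg15 passed 7.01%, 2.13% and 3.04% of spleen, colon 1 and colon 2 cells. The sort held no cell type known to lack these transcripts, so the level that free RNA would give was not measured, and tissue, digestion and library cannot be told apart.

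**Figure D4:**
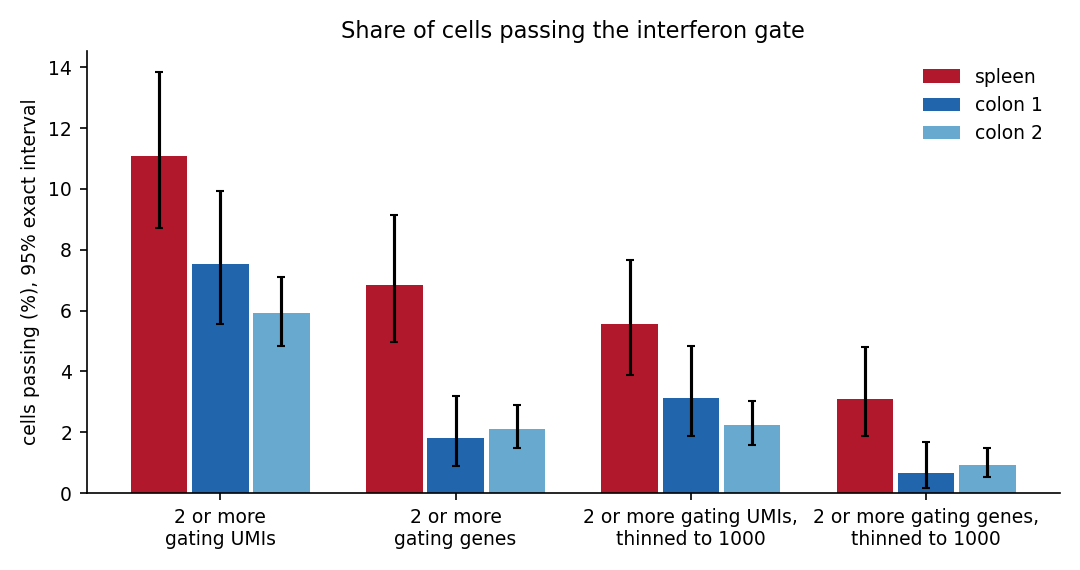
Share of cells that passed the interferon gate in each library (bars from 0, with 95% exact intervals), for 2 or more gating UMIs and for 2 or more gating genes, with all UMIs and with cells thinned to 1000 UMIs. The spleen bar is the highest in each set, at 11.1% and 6.85% with all UMIs.

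Gated cells of all 3 libraries had higher interferon genes than their own matched cells, by 1.39-fold (1.34 to 1.45) in the spleen, 1.39-fold (1.32 to 1.46) in colon 1 and 1.58-fold (1.54 to 1.63) in colon 2. In colon 1, 15 of 44 genes were 2-fold higher and 1 lower, beside 5.69% and 9.59% of all genes, and in colon 2 25 of 72 and 1, beside 4.05% and 7.32%. Bst2 was at 1.43 in the spleen and at 1.51 and 1.66 in the colon libraries, and Zbp1 at 1.21, 1.03 and 2.09. Rsad2 had 6 UMIs in gated and 6 in matched cells of colon 1, out of 112511 and 334847 UMIs without the gating genes. In colon 2 it had 23 and 1, out of 265289 and 794029. Its UMIs were too few for a ratio in either colon library. Klrg1, higher in spleen members, was at -0.19 and -0.38 in the colon libraries.

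Among the 6 interferon lists, the GTPases had the largest gap between the spleen and either colon library. They were 1.40-fold (1.23 to 1.59) higher in spleen members but 2.81-fold (2.46 to 3.21) in colon 1 and 2.64-fold (2.45 to 2.86) in colon 2, where 10 of 13 and 11 of 16 genes were 2-fold higher. Iigp1 was at 2.87 and 2.68 in the colon libraries against 1.05 in the spleen, and Tgtp1 at 2.57 and 2.17 against 1.15. Ifi47, at 0.10 in the spleen, was at 1.66 and 2.15, and Gbp6 was at 0.38, 1.40 and 2.18. In the colon these genes were also higher in gated cells with 1 gating gene, by 2.27-fold (1.94 to 2.64) in colon 1 and 2.37-fold (2.16 to 2.59) in colon 2, against 1.08-fold (0.87 to 1.33) in the spleen. The intervals of spleen and colon do not overlap for either kind of cell, but they cover counting error only, and the difference between tissues was not tested, with 1 spleen library. The resting lymphocyte list, at a ratio of 0.80 in the spleen, was at 1.36 (1.13 to 1.64) in colon 1 and 0.93 (0.82 to 1.06) in colon 2.

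**Figure D5:**
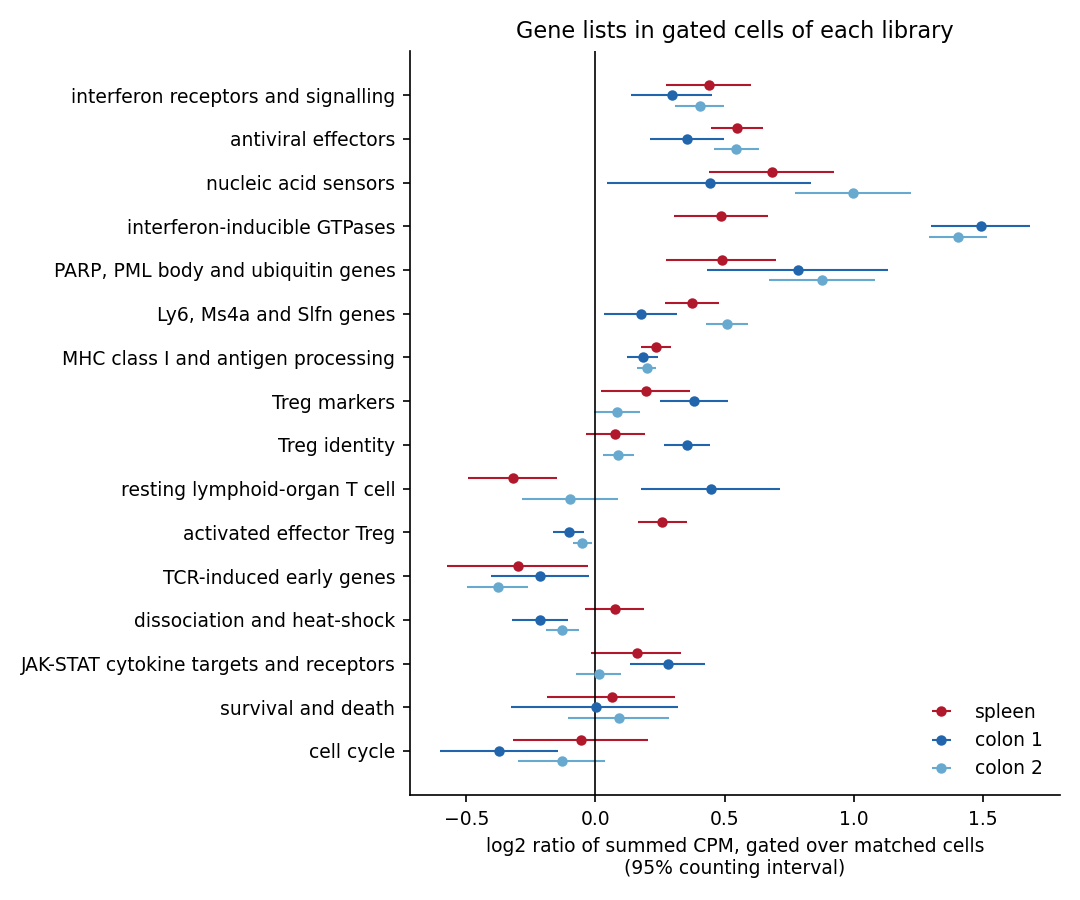
Log2 ratio of the summed CPM of each gene list in gated over matched cells (horizontal axis, bars are 95% counting intervals) in spleen, colon 1 and colon 2. The 6 interferon lists and MHC class I lie above 0 in every library, the GTPases reach 1.49 and 1.40 in the colon against 0.49 in the spleen, and the resting and effector lists change sides between libraries.

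The element printed above was then counted in all promoters of the RefSeq table. The response element core on either strand was present in 3.44% of 32851 promoters of 300 bases, and TTCNNNGAA, the core of the gamma-activated site and its own reverse complement, in 8.30%. By gene, over all listed starts, the shares were 3.99% and 9.55% of 27025 genes. Of the interferon list genes, 92 were matched to a promoter and 42.4% of these held the response element core. It was present for 13 of the 18 matched list genes that were 2-fold higher in spleen members (72.2%), including Rsad2, Bst2, Gbp7, Eif2ak2 and Trim30a. Of the 37 matched list genes with a ratio that were not 2-fold higher, 11 held it (29.7%). TTCNNNGAA was present for 7 of the 18 higher list genes (38.9%). It was present for 23.9% of the 92 matched list genes and 18.9% of the 37 not 2-fold higher. Both motifs were present for 6 of the 18, namely Bst2, Gbp7, Irf2, Tgtp1, Tgtp2 and Eif2ak2. In Eif2ak2 the response element core lies after the start.

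Taken without any list, 2473 of the 3082 genes of the spleen comparison had a promoter. The response element core was in 4.61% of them, and of the genes that held it 18.4% were 2-fold higher and 5.26% lower in the members, against 5.09% and 7.76% of the 2359 without it. Of the 90 that held it outside the 6 lists, 8 were 2-fold higher (8.89%) and 6 lower (6.67%), beside 5.70% and 7.64% of all genes with a promoter, with a median log2 ratio of 0.11. The lower ones were Ccdc53, Mapk14, Parp4, Pdcd6, Rsbn1 and Tbpl1. Named after their values were seen, the higher ones were the chemokine gene Cxcl10, the galectin gene Lgals9, the NADPH oxidase gene Cybb, Ncoa7, Coro2a, Ccm2, Psd4 and Pydc3. Cxcl10 had 25 UMIs in 3 members and 11 in 7 matched cells, a log2 ratio of 2.75 (1.67 to 3.92), and was at 2.23 and 1.76 in the colon libraries. Lgals9 had 50 UMIs in 24 members and 73 in 43 matched cells, at 1.02 (0.47 to 1.56), and was at 1.09 and 0.47 in the colon. Coro2a and Ccm2 were at 1.66 and 1.21 in the spleen and at -1.07 and -0.04 in colon 1. TTCNNNGAA was in 8.65% of the 2473 genes. Of the genes that held TTCNNNGAA, 9.81% were 2-fold higher and 9.81% lower, against 5.31% and 7.44% of the 2259 without it. Outside the 6 lists 7.0% of those with TTCNNNGAA were higher and 10.5% lower. A match shows that the letters are present and not that a factor binds there.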

How the data were processed

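Single-cell mRNA was measured by inDrops in sorted Foxp3 reporter Tregs of spleen and colon. The deposited table holds whole-number UMI counts per gene and cell for 23725 genes. Per the submitters' processing notes, TopHat2, SAMtools and the mm10 build were used, and how UMIs were collapsed and cells chosen is not given in the sources used here. Columns were matched to labelled cells, with 0 columns left out. In each library the summed UMIs came to 98.2% to 98.4% of those the labels state. The table of cell labels was not used, and no doublet caller was run.

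The members and the gene lists were chosen with earlier results of these data known. Members, cells with 0 gating UMIs, the matched cells and the sums were computed in Python 3.11.15 with numpy 2.4.6, scipy 1.17.1 and pandas 2.3.3. CPM has an exact Poisson interval and a ratio an exact conditional binomial interval. The spleen library had 613 of 617 cells with 1000 or more UMIs, of which 419 had 0 gating UMIs and 204 were matched cells. The interferon lists hold 115 genes, of which 114 were in the table. A count of 0 was set to a floor of 3 counts per group, and thinning used a fixed seed. No p-value was computed, since cells of 1 library are not replicates. edgeR 4.0.16 and DESeq2 1.42.0 (R 4.3.3) gave alternative scaling factors of the summed counts and no test. The ratio and interval were tried on Poisson counts simulated from the summed matched cells. These counts had no spread between cells, so that trial cannot show how the intervals do for uneven cells. Promoters are from RefSeq (GRCm38.p6) and gene positions from GENCODE vM21, both of the same primary assembly as mm10. Symbols were matched directly or through a synonym held by 1 gene.

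Genes to be named were drawn from the 15 highest and 15 lowest by the end of the 95% ratio interval nearest to no difference, with UMIs in 5 or more cells of the higher group. T cell receptor, immunoglobulin, ribosomal protein, mitochondrial and unnamed genes are left out. To these come up to 6 members of each interferon list and of MHC class I and up to 4 of each other list with the largest log2 ratio in size, and Foxp3, Il2ra, Ctla4, Ikzf2, Cd4, Stat2, Irf9, Irf1, Ifnar1, Ifnar2, Ifngr1, Socs1, Bst2, Ifi27l2a, Ly6a and Ly6c1 in every case. All 30 of the highest and lowest are named, of the list genes those a result turns on, and a gene that qualifies is not reported here. Other genes, among them Cmpk2, Oas1a, Oas3, Oasl2, Mx1, Ifi47, Irgm1, Gvin1, Gbp4, Gbp6, Siglech and the genes with the element outside the lists, were named after their values were seen.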

Additional observations from a re-analysis of the deposited data

Results flagged for a closer look

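The activated effector Treg list was at a log2 ratio of 0.26 in spleen members over matched cells, while in colon 1 and colon 2 it was at -0.10 and -0.05. It was picked out because it lay above 0 in the spleen and below 0 in both colon libraries, each beyond its counting interval. The difference itself was not tested, with 1 spleen library. Cd44, Id2 and S100a11 of this list were at 0.73, 0.78 and 0.65 in the spleen, and Klrg1 at 1.69.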

How the results depend on the processing

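The summed interferon lists stayed above their comparison cells under each alternative but 1, at different sizes. Their log2 ratio of 0.48 was 0.74 with 3 or more gating UMIs, 0.74 with the gate on thinned cells, 0.65 without Isg15 in the gate, 0.36 and 0.38 with TMM and median of ratios scaling, 0.40 as a share of cells with a UMI, 0.70 for members with 2 or more gating genes and 0.0027 for those with 1, where no difference was detectable and 3 of the 6 lists changed sign. In colon 1 the value of 0.47 was 0.81 with 3 or more gating UMIs, 1.01 for 2 or more gating genes and 0.26 for 1, and in colon 2 0.66 was 0.91, 0.94 and 0.51. The 5.61% of genes 2-fold higher and 7.75% lower were 6.29% and 12.9% against all spleen cells with 0 gating UMIs, 6.38% and 9.46% with the thinned gate, 14.7% and 14.4% with no filter on UMIs, 6.97% and 8.69% for 1 gating gene, and 4.77% were lower by share of cells with a UMI. The counts behind these shares moved by more than 1.5 times. The number of genes tested also moved, from 1105 for 1 gating gene to 8436 with no filter. By share of cells with a UMI it stayed at 3082.

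Without ribosomal protein genes in the totals, the sums by gating UMIs were 23736, 25471, 26012 and 36807 CPM for 0, 1, 2 and 3 or more. With these genes kept, the cells with 0 that were matched on depth were at 16578, against 16916 for all cells with 0. Shares that passed with 3 or more gating UMIs were 5.71%, 2.79% and 2.12%. Thinned they were 5.55%, 3.11% and 2.24%, without Isg15 7.01%, 2.13% and 3.04%, and with 2 or more gating genes 6.85%, 1.80% and 2.12% (spleen, colon 1, colon 2).

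For members with 1 gating gene, and cells matched to them, the log2 ratio changed sign for the sensors (-0.40), GTPases (-0.048), the PARP list (-0.36), Ddx58 (-2.42), Zbp1 (-1.16), Slfn8 (-0.84), Socs2 (-0.74), Phf11d (-0.42), Isg20 (-0.30), Tap1 (-0.27), Slfn1 (-0.23), Tmem173 (-0.21), and Jak2, Mndal and Trim30a (-0.0069 each). Casp8 was at -0.16 with 2 or more gating genes. On the thinned gate Id2 was at -1.17, Ctla4 at -0.48, Ppp2cb at -0.22 and S100a11 at -0.090. Without Isg15, Jak2 was at -0.23 and Id2 at -0.00799. Il2rg was at -0.028 with 3 or more gating UMIs, and Ctla4 at -0.16 by share of cells. The causes were not tested. The subsets by number of gating genes and the share of cells with a UMI were chosen after seeing the data. Depth limits single genes: many antiviral genes had under 30 UMIs. No paired analysis was possible because the libraries carry no shared replicate numbers and no test was run.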
